A study of Rattus norvegicus with 120 samples.

Results

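Scd, Elovl3, Lpo, Pigr and Aqp5 are 5 genes known from the lacrimal and Harderian glands, the tear and lipid glands that lie beside the rodent eye. They were chosen by symbol, as all probe sets (groups of short array probes for one transcript) annotated to one of these genes alone, and each gene had 1 probe set among the 31042 of the table that were not controls. Their levels were measured in RNA of both eyes, pooled, of 120 male rats, with 1 Affymetrix array for each animal. The animals were 12 weeks old and were F2 offspring of the strains SR/JrHsd and SHRSP (written SHR/SP in the sample labels), so each carried its own mixture of both parental genomes. The labels place all 120 in 1 group with no treatment, give no genotypes, and do not say whether tissue around the globe was removed. The deposited levels are log2 values, and the level of one probe set cannot be set against that of another, so each gene is compared only between animals.

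Scd, stearoyl-CoA desaturase, makes monounsaturated fatty acids, and Elovl3 lengthens fatty acids to the very long chains found in sebum, in Harderian gland lipid and in brown fat. Lpo is the secreted lactoperoxidase of tears, saliva and milk, Pigr is the receptor that carries polymeric immunoglobulin across mucosal and glandular epithelium, and Aqp5 is a water channel of tear and salivary acini that the corneal epithelium also makes. The lacrimal gland delivers the watery, protein-rich part of tears, and the Harderian gland of rodents delivers lipid together with porphyrin.

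The promoters of the pairs with the highest r over all animals, Elovl3 with Scd and Lpo with Pigr, are shown as the 250 bases before the annotated start of each gene, 5′ to 3′ on the strand of the gene, from RefSeq on assembly GRCr8. Capitals mark matches on either strand. The motifs searched were the TATA box, spelled TATAAA, and the CCAAT box. Further ones were the GC box with the spelling GGGCGG, the E-box with the spelling CACGTG, and a sterol response element with the spelling TCACNCCAC. None of them overlapped in these windows. The windows are chr1:253231732-253231981 on the minus strand for Scd, chr1:254938481-254938730 on the plus strand for Elovl3, chr10:73123457-73123706 on the minus strand for Lpo and chr13:44850932-44851181 on the plus strand for Pigr.
Scd: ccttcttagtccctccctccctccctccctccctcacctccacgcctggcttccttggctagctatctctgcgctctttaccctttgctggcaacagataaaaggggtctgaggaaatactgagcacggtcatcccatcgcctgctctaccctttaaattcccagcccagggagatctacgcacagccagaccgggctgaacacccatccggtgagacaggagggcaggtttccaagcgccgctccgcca
Elovl3: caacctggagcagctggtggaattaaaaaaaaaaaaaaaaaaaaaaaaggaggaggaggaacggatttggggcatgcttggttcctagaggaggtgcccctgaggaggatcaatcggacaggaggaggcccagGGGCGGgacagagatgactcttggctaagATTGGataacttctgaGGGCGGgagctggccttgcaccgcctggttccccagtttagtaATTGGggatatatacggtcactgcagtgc
Lpo: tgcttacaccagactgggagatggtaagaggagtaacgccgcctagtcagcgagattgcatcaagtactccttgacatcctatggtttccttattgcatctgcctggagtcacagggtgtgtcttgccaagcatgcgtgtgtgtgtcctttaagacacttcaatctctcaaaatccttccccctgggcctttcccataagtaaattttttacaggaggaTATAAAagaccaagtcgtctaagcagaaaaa
Pigr: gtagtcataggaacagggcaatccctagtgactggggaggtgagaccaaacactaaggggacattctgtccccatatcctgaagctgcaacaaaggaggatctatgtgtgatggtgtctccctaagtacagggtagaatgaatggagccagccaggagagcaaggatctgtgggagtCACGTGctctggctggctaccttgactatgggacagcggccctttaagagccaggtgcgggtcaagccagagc
None of these letters was in the Scd window, whereas Elovl3 had 2 GC boxes and 2 CCAAT boxes, the nearer CCAAT match lying 29 to 25 bases before the start. Lpo had a TATA box 31 to 26 bases before the start, and Pigr had an E-box 73 to 68 bases before it. The window of Aqp5 (chr7:132601278-132601527, plus strand), the richest in G and C of the 5 at 83.2% against a median of 51.2% over 33469 promoters, held an E-box and 2 GC boxes. Among all 33469 promoters of this length, 12.9% had the TATA box, 34% the CCAAT box, 30.5% the GC box, 5.6% the E-box and 1.0% the sterol element. The Elovl3–Scd and the Lpo–Pigr pair thus shared none of the searched letters within these windows, which describes the letters only.

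Probe sets were tested where their mean reached 4.283, the 25th percentile of all values. Scd, Lpo, Pigr and Aqp5 passed this filter, and Elovl3, with a mean of 3.12, did not. The lens gene Cryaa (13.63 to 14.27) and the corneal keratin Krt12 (12.88 to 13.33) varied little over the animals, and array medians lay between 5.776 and 5.956. The sample titles carry an S code (10 codes of 11 to 13 arrays) and an L code (22 codes of 2 to 11 arrays), which the labels do not explain. Titles of S codes 1 to 5 also carry a date, the same within each code, and do not say what it marks. Correlations below were computed after subtracting S code means.

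Markers of the lacrimal secretory cell gave the first check of the label. Of 31 listed genes, 24 had a probe set of their own, and 9 of these lay below the filter on average: Bhlha15, Pip, Lcn1, Obp1f, Cftr, Kcnn4, Scgb1a1, Bpifa2 and Smr3b. For 7 of the 9 no animal reached the filter level. Bhlha15, the transcription factor of secretory acini, ranged from 3.26 to 4.04, the secreted protein gene Pip from 2.87 to 3.43, and Lcn1, the tear lipocalin, from 3.03 to 3.75. The other 2 genes, Scgb1a1 (5.20) and Bpifa2 (4.83), passed the filter level in 1 animal each, R63, the array least like the rest. These 7 were thus below the filter level also in the animals with the highest Scd, Elovl3 and Lpo. The other 15 listed genes passed the filter, among them the chloride transporter Slc12a2 (mean 10.41), Lyz2 (10.07) and Rab3d (8.76).

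Scd was at 6.99 in the lowest animal, 7.82 in the median animal and 12.48 in the highest. The highest was animal R77, 25.4-fold above the median, followed by R121 at 10.88, 8.38-fold above it, and by R55 at 8.67. R77 and R121 stood apart, and the other animals formed a single cloud. Its SD, with S code means removed, was 0.58 over all animals, 0.39 without R77 and 0.28 without R77 and R121.

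Elovl3 had a lowest value of 2.84, a median of 3.04 and a highest of 7.92. The highest was again R77 and the second again R121, at 5.35. R77 was 12.5-fold and R121 2.10-fold above the filter level of 4.283, which is a cutoff over all probe sets and not a measured floor of this one. The third, R22, was at 3.49, so all animals but R77 and R121 were near the floor of the array and differed little from each other. Without R77 the SD fell from 0.50 to 0.23, and without both animals it was 0.11.

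**Figure D1:**
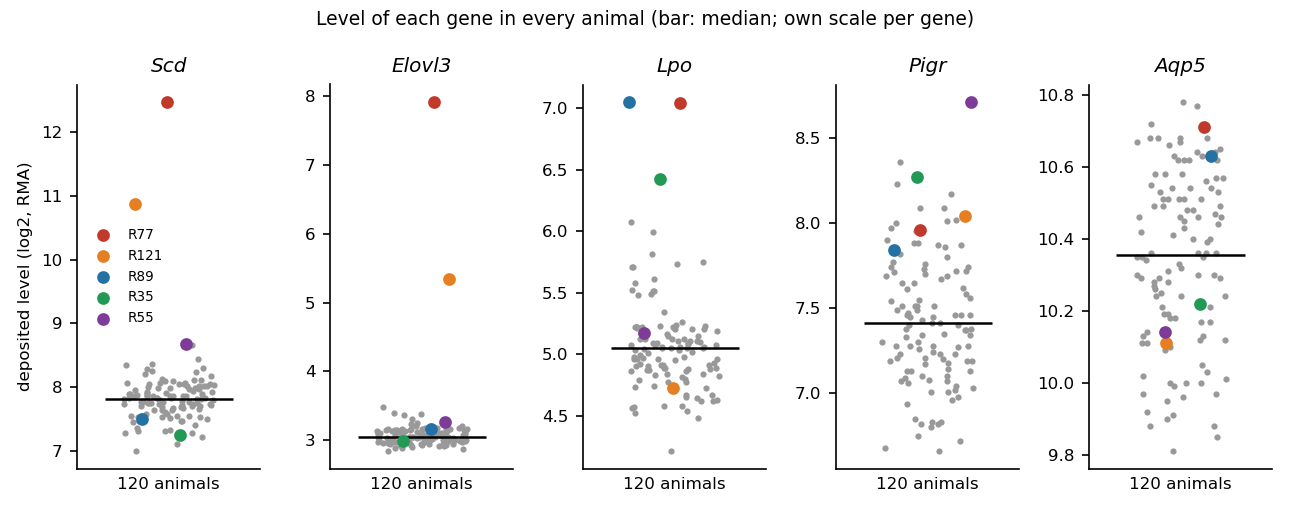
Deposited log2 level of each of the 5 genes in all 120 animals, 1 point per animal, with the median as a bar and a scale of its own for each gene. R77 and R121 lie above all others for Scd and Elovl3, R89 and R77 for Lpo (7.05 and 7.04) and R55 for Pigr (8.71), while Aqp5 has no animal apart from the rest.

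Lpo ranged from 4.21 in R73 through a median of 5.05 to 7.05 in R89. R89 (4.01-fold) and R77 (7.04, 3.98-fold) were followed by R35 at 6.42 and R56 at 6.07, and these 4 were the animals at least 2-fold above the median. R121, second for Scd and Elovl3, had 4.72 and lay below the median. The SD of Lpo was 0.42, and 0.39 without R77, so it did not rest on that animal.

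Pigr was at 6.66 in the lowest animal, 7.41 in the median animal and 8.71 in the highest, R55. R83 (8.36) and R35 (8.27) came next in a continuous spread. R77 had 7.96 and R121 8.04, both within the upper part of that spread. The SD was 0.37 with or without these animals. Aqp5 was at 9.81, 10.36 and 10.78 in the lowest, median and highest animal, R77 was at 10.71 and R121 at 10.11. Its SD of 0.16 was the smallest of the 5.

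Against the SDs of all tested probe sets, Scd was more variable than 98.7%, Elovl3 than 98%, Lpo than 97%, Pigr than 95.7% and Aqp5 than 40.8%. Without R77 and R121, Elovl3 lost most of its spread while Lpo, Pigr and Aqp5 kept theirs. Of the 12 animals highest for each gene, taken for the 4 genes that passed the filter, R77 was among them for Scd, Lpo and Pigr and ranked 36th for Aqp5 with S code means removed. R56 was among the top 12 for the same 3 genes, 8 animals for 2, and 84 animals for none.

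Levels of Aqp5 followed the S code. Its code means ran from 9.99 ± 0.16 (SD, n = 12) in code 5 to 10.62 ± 0.10 (SD, n = 12) in code 7, a difference of 1.55-fold. The highest animal of code 5 (10.39) and that of code 10 (10.36) were below the lowest of code 7 (10.43) and of code 4 (10.46). These codes were picked by their values, and the share of all probe sets with S codes that do not overlap was not counted. The code accounted for 61.5% of the variance of Aqp5 (limma moderated F test, adjusted p = 6.72e-18). Pigr differed less, from 7.18 ± 0.24 (SD, n = 12) in code 4 to 7.67 ± 0.27 (SD, n = 13) in code 10, with overlapping codes and 17.6% of the variance (limma, adjusted p = 0.00827). Its adjusted p was 0.230 in the fit that also held, as a measure of RNA degradation, how far 3′ probe sets of actin and GAPDH lay above 5′ ones. Since 92.1% of all tested probe sets passed the same test, passing it is not particular to Aqp5 or Pigr.

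**Figure D2:**
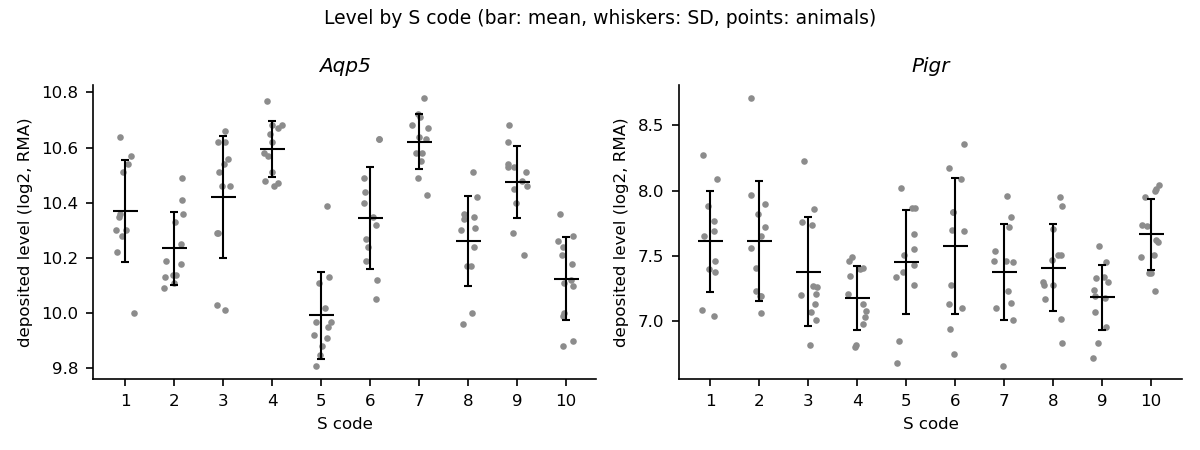
Deposited log2 levels of Aqp5 (left) and Pigr (right) by S code, with points for animals, bars for code means and whiskers for the SD. For Aqp5, codes 4 and 7, picked by their values, lie wholly above codes 5 and 10, while all codes of Pigr share a range of values. The share of all probe sets with such separate codes was not counted, and 92.1% of those tested passed the S code test.

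Scd (adjusted p = 0.173) and Lpo (0.430) did not pass the S code test in limma, nor did Elovl3 (0.413) in the fit with no filter, where 87.5% of probe sets passed. Without R77 the adjusted p of Scd was 0.0428, and without R77 and R121 it was 0.0278, when 91.4% of probe sets passed. R77 is in S code 7, where Scd averaged 8.20 ± 1.37 (SD, n = 12), and R121 in code 10, where its SD was 0.85 (n = 13) against 0.17 to 0.33 in the other codes. Given the S code, no gene of the 5 passed the L code test, which 4.58% of probe sets passed. The limma adjusted p was 0.774 for Scd, 0.830 for Lpo, 0.449 for Pigr, 0.586 for Aqp5 and, with no filter, where 3.32% passed, 0.803 for Elovl3. None had an unadjusted p under 0.05, the lowest being 0.218 for Pigr. Leaving out R77 and R121 gave Scd an unadjusted p of 0.00281 and an adjusted p of 0.0560, with 4.62% of probe sets passing.

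The limma adjusted p of a pair is that of the regression on the gene named first. It is adjusted over all probe sets of that regression, so the other direction can give another value. Levels of Elovl3 and Scd were correlated over the 120 animals with r = 0.830, the highest of the 10 pairs among the 5 genes (two-sided permutation p within S codes 0.00580, limma adjusted p over all probe sets 8.42e-27). Spearman rho was 0.193 (permutation p = 0.444). The 2 animals farthest from the median were R77 and R121, and after removing them r was 0.231. Without R77 r was 0.567 (permutation p = 0.0716), and with S code means refitted without both animals r was -0.149 (permutation p = 0.135). Within S codes r ranged from -0.617 to 0.985 and was positive in 5 of 10. The relation of these lipid enzymes thus rested on 2 animals.

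Lpo and Pigr were correlated with r = 0.455 and rho = 0.463 (permutation p = 1e-05 for each, the smallest that 100000 permutations can give; limma adjusted p = 0.00374). After removing the 2 animals farthest in Lpo, R77 and R89, r was 0.458, and refitted without R77 and R121 it was 0.445 (limma adjusted p = 0.0123). Its sign was positive in 9 of 10 S codes, from -0.170 to 0.752. The animal lowest for Lpo, R73, was also lowest for Pigr once S code means were removed. Of the 12 highest animals 4 were shared, as were 4 of the 12 lowest, and the overlap of unrelated genes was not counted. The correlation of this pair, both secreted or transported with mucosal and glandular fluid, did not rest on R77, R89 or R121. In the regression on Lpo 0.695% of probe sets passed. In that on Pigr 23.4% did, so following Pigr is not particular to Lpo.

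Of the other 8 pairs, Elovl3 with Lpo passed in limma (r = 0.357, permutation p = 0.0482, adjusted p = 0.00530), but without R77 r was -0.031. Scd with Aqp5 had r = 0.185 (permutation p = 0.0170) and rho = 0.307 (permutation p = 4.90e-04), with a limma adjusted p of 0.408. Leaving out R77 and R121 gave r = 0.308, a limma unadjusted p of 0.00114 and, in the regression on Scd, an adjusted p of 0.0561. Scd with Pigr had r = 0.239 (permutation p = 0.00510, limma unadjusted p = 0.0103, adjusted p in the regression on Scd = 0.193), and r was 0.187 without R77. For the pairs of Scd with Aqp5 and with Pigr, the adjusted p of the other direction is not given here. Scd with Lpo (r = 0.270, -0.060 without R77), Lpo with Aqp5 (0.184), Elovl3 with Pigr (0.139), Elovl3 with Aqp5 (0.038) and Pigr with Aqp5 (-0.034) did not pass, with limma adjusted p from 0.111 to 0.907. The 5 genes did not vary as a single set.

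**Figure D3:**
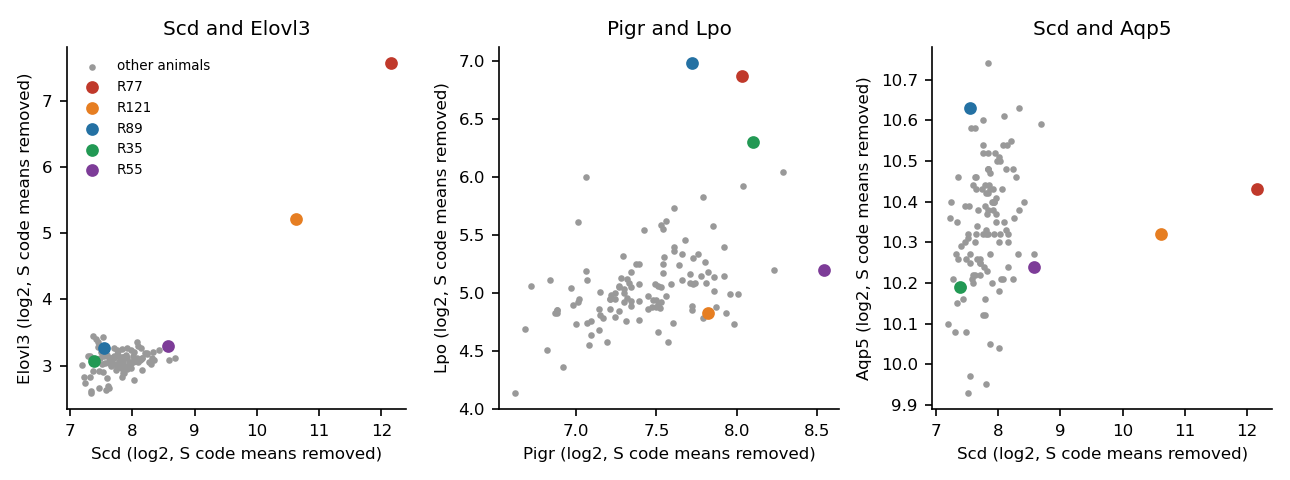
Log2 levels, S code means removed, of Scd against Elovl3, Pigr against Lpo and Scd against Aqp5, 1 point per animal. The first relation (r = 0.830) is carried by R77 and R121, the second (r = 0.455) runs through the whole cloud, and in the third R77 and R121 lie far to the right of it.

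Each probe set was then regressed on each of the 5 genes across animals in limma, with Benjamini-Hochberg adjustment over all probe sets. Scd was followed by 420 probe sets (1.80%), while 39 (0.167%) passed without R77 and 397 (1.70%) without R77 and R121. At the level of genes, 271 (2.20%) were higher where Scd was higher and 48 (0.390%) lower. The nearest genes were Krt25, a keratin of the hair inner root sheath (r = 0.824, adjusted p = 3.56e-25), the retinol dehydrogenase Sdr16c5 (0.803), the lipid droplet proteins Plin2 (0.799) and Cidea (0.798), the epidermal keratin Krt1 (0.793) and the phospholipid carrier Pctp (0.787). Without R77 and R121 all 6 had r between -0.059 (Krt25) and 0.260 (Pctp), with adjusted p of 0.112 or more. The most negative were Celsr3 (-0.457) and Lingo1 (-0.441), both of neurons, Gpr19 (-0.445) and Zwint (-0.415). Celsr3 was at 7.28 in R77, below the 7.82 to 8.42 of the animals other than R77 and R121, and at 8.04 in R121. Without R77 none of these 4 passed, and r with Scd was 0.040 for Celsr3 and -0.036 for Zwint. Gpr19 (r = -0.367, adjusted p = 0.0221) and Lingo1 (-0.318, 0.0448) passed without R77 and R121, and the other two did not.

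Elovl3 was followed by 1020 probe sets (4.37%), by 17 (0.0729%) without R77 and by 7602 (32.6%) without R77 and R121, when its remaining values lay near the floor of the array. In those animals its r with the 75th percentile of the array was -0.401 and its Spearman rho -0.217. The 2 animals farthest in Elovl3 were then R22 and R63, the latter with the lowest 75th percentile of all arrays (7.11). With all animals, 238 genes (1.93%) were higher and 421 (3.42%) lower where Elovl3 was higher. Nearest were Krt25 (r = 0.958, adjusted p = 5.83e-58), Krt1 (0.881), Adtrp (0.873), the skin protease Asprv1 (0.856), Plin2 (0.838) and Loricrin, the main protein of the cornified envelope (0.838). Krt25 was at 8.95 in R77 and 6.49 in R121 against 3.88 to 4.85 in the others, S code means removed. The most negative were neuronal: Celsr3 (-0.609), the ribbon synapse gene Cplx3 (-0.592), Crmp1 (-0.569) and Stmn2 (-0.555), and without R77 none of these 4 passed.

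Genes listed for sebaceous and wax-forming glands rose with both enzymes when all animals were used. With Scd 7 of 14 tested rose, beside 2.20% of all genes (median r 0.26, against 0.02 over all 12322 genes). With Elovl3 7 of 14 rose, beside 1.93% of all genes (0.27 against -0.01). For both these were Plin2, Cidea, the acyl-CoA synthetase Acsbg1 (0.750 with Scd), the cholesterol-esterifying enzyme Soat1 (0.740), Krt79 (0.731), Mgst1 and the alcohol-forming reductase Far1. Beside the same shares of all genes, 7 of 20 of the fatty acid synthesis list rose with Scd, led by Elovl1 (0.783), malic enzyme Me1 (0.640) and Dgat2 (0.528). With Elovl3 6 of 20 rose, led by Elovl1 (0.835). Without R77 the counts for Scd were 4 of 14 and 1 of 20, beside 0.211% of all genes. Without R77 and R121 they were 0 of 14 and 0 of 20 in limma, beside 1.26% of all genes. At an unadjusted p under 0.05 there were 4 and 6, with positive r in 4 and 5, and the share of all genes at that p was not counted. For Elovl3 the counts without R77 were 3 of 14 and 1 of 20, beside 0.114% of all genes. Without both animals 3 of the 14 were higher and 2 lower with Elovl3 (median r -0.11), and 0 of the 20 passed in limma, beside 9.10% of all genes higher and 23.9% lower. In the same animals the fatty acid synthase Fasn had r = 0.310 with Scd (adjusted p = 0.0596).

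Genes of keratinised epithelium were high in R77 and R121. In lists chosen after the values were seen, 7 of 9 epidermal genes and 4 of 4 hair follicle genes rose with Scd, and likewise 7 of 9 and 4 of 4 with Elovl3, beside 2.20% and 1.93% of all genes. Without R77 the counts were 5 of 9 and 1 of 4 for either enzyme, beside 0.211% of all genes for Scd and 0.114% for Elovl3. With R121 left out too they were 0 of 9 and 0 of 4 for Scd (median r 0.03 and -0.07), beside 1.26% of all genes. For Elovl3, whose levels were then near the floor, they were 3 of 9 and 3 of 4, beside 9.10% of all genes. The summed level of the listed genes, on the linear scale with S code means removed, was 7595 in R77 and 2336 in R121 for the epidermal genes, against 693 to 2413 in the others. For the hair follicle genes it was 1433 and 482 against 262 to 442, and for the sebaceous list 7906 and 5883 against 3843 to 5671. On the same scale, R77 was at least 2-fold above the median in 71 of 12322 genes (0.576%), led by Krt1 (39.8-fold), Loricrin (32.3), Krt25 (22.9), Krt10 (21.4), Scd (20.1) and Dmkn (16.6). R121 reached 2-fold in 20 genes (0.162%), and its first 5 were Krt1 (7.51-fold), Loricrin (7.16), Scd (6.98), Dmkn (6.43) and Krt10 (5.80). The part of skin, eyelid or gland RNA in these values was not tested, and in pooled whole tissue more cells of a type and more RNA per cell cannot be told apart.

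Animal R18 separated the epidermal from the lipid genes. Its summed epidermal level, 2413, was the second of 120 and just above that of R121. By deposited levels, R18 had 10.6-fold the median Loricrin, 8.50-fold the Krt10 and 6.72-fold the Krt1, close to R121 with 8.09, 8.01 and 8.37-fold. Yet Scd was at 7.95 in R18, 1.10-fold the median and rank 38, Elovl3 at 3.21, near the floor, and Krt25 at 4.44, 1.04-fold. High cornified-layer keratins thus came with high Scd, Elovl3 and Krt25 in R77 and R121 and without them in R18, an animal picked after its values were seen.

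**Figure D4:**
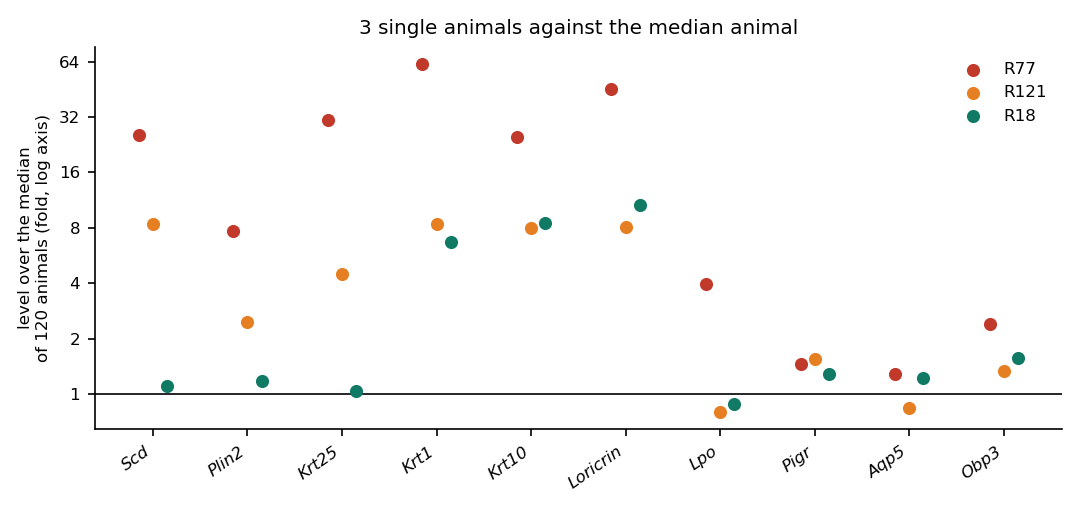
Level of 10 genes in 3 single animals as a fold of the median of 120, deposited values, on a log axis. R77 and R121 are above the median for Scd, Plin2 and Krt25 as well as for Krt1, Krt10 and Loricrin, whereas R18 is above it for the keratins Krt1 and Krt10 and for Loricrin but near 1 for Scd, Plin2 and Krt25.

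R77 also held more of some secretory genes. It was the highest of 120 for 3 of 15 tested lacrimal secretory genes, as for 5.02% of all genes: the lipocalin Obp3, at 9.21 or 2.41-fold the median, the secretory granule protein gene Rab3d (9.50) and the epididymal protein gene Wfdc2 (8.89). Summed over the 15, R77 had 5502 and R121 4750 against 3367 to 5112 in the other animals. Rab3d was the list member that rose with Scd (r = 0.466, adjusted p = 1.19e-04), and Rab3d, Wfdc2 and Dmbt1 rose with Elovl3, which is 1 and 3 of 15 beside 2.20% and 1.93% of all genes. Without R77, 0 of 15 passed for either enzyme in limma, and Rab3d had r = 0.173 with Scd (adjusted p = 0.398) and 0.138 with Elovl3 (0.993). Adipocyte genes gave 1661 in R77 and 1469 in R121, within the 1161 to 1688 of the rest, and 3 of 10 rose with Scd, namely Pparg, Fabp4 and Cd36. Genes of porphyrin synthesis, for which the Harderian gland is known, gave 2167 and 2085 within 1611 to 2300, and 0 of 7 rose with Scd or Elovl3.

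With R77 and R121 left out, the nearest gene to Scd was the fatty acid binding protein Fabp4 of fat cells and capillaries (r = 0.601, limma adjusted p = 5.02e-08), followed by the transcription factor Nfe2l1 (0.489), Ccar2 (0.473), Myh9 (0.468), Bcat2 (0.468) and Sf3b5 (0.463). Fabp4 had r = 0.391 over all 120. In those animals 2 of 10 adipocyte genes, Fabp4 and Adipoq (0.327), rose with Scd, beside 1.26% of all genes. Of 17 skeletal muscle genes 0 passed in limma, while 11 had an unadjusted p under 0.05, all with positive r. The median r over the 17 was 0.20, against 0.07 over all genes. The share of all genes at that unadjusted p was not counted, and the part of muscle tissue in this was not tested. With 5 principal components of all probe sets also removed, r over all arrays was 0.320 for Fabp4, 0.307 for Sf3b5 and 0.273 for Bcat2. For Nfe2l1, Ccar2 and Myh9 it was 0.074, 0.063 and 0.081. The paralogue Scd2 did not pass with Scd: over all animals r was 0.057 to 0.098 over its 4 probe sets, and R77 ranked 20th at best. Refitted without R77 and R121, r was 0.244 for its tested probe set (adjusted p = 0.152).

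Scd and Elovl3 lie 1.71 Mb apart on chromosome 1, and in an F2 cross neighbouring genes share alleles. Of the 19 tested genes between them, 0 passed in limma for either gene, with 2 for Scd and 0 for Elovl3 at an unadjusted p under 0.05. The share of all genes at that unadjusted p was not counted. Without R77 and R121, 1 passed for Scd (Oga, r = 0.342, adjusted p = 0.0312). For Elovl3 4 passed, 2 of them higher, a smaller share (21.1%) than the 32.6% of all probe sets that followed it in that fit. Scd2, next to Scd on the same chromosome, had r = 0.069 with it (adjusted p = 0.837).

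Lpo was followed by 162 probe sets (0.695%), with 47 genes (0.381%) higher and 56 (0.454%) lower where Lpo was higher. Nearest were Lrrc26, a channel subunit of secretory epithelia (r = 0.454, adjusted p = 0.00374), the mucin glycosylation enzyme Galnt6 (0.437), aminopeptidase N, Anpep (0.433), the zymogen granule glycoprotein Gp2 (0.421), the choline transporter-like Slc44a4 (0.413) and Tmem97 (0.410). Without R77, 2 probe sets (0.00857%) were left, those of Galnt6 (r = 0.436, adjusted p = 0.0229) and Pigr. The most negative were the synaptic vesicle gene Syngr3 (-0.449), Tmem200c (-0.439), the secretogranin Scg2 (-0.431) and Dnajc12 (-0.425), whose r without R77 lay between -0.318 and -0.288, with adjusted p of 0.330 or more. Tmem97 was at 9.04 in R77 and 6.95 to 7.67 in the animals other than R77 and R121, S code means removed.

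Over all animals 0.381% of all genes rose with Lpo, and the list counts stand beside that share. Of the lacrimal secretory genes 1 of 15 rose with Lpo (Wfdc2, r = 0.362), and of the fatty acid synthesis genes 2 of 20 (Slc25a1, 0.389, and Elovl1, 0.371). Of the sebaceous genes 1 of 14 rose (Cidea, 0.360), and of the ocular surface genes 1 of 19 (the goblet cell factor Spdef, 0.347). None of these passed in limma without R77 and R121, when 0.0129% of probe sets did and the adjusted p was 0.399 or more. Of the lists chosen after the values were seen, 3 of 4 hair follicle genes (Krt33b, 0.407; Krt25, 0.365; Krt86, 0.349; list median 0.36) and 1 of 9 epidermal genes (Cdsn, 0.365; list median 0.26) rose with Lpo, beside 0.381% of all genes, and 0 of either passed in limma without R77. In R89, the animal with most Lpo, Scd was low, at 7.49 and below the lower quartile of 7.63, Elovl3 was near the floor at 3.17, Pigr was at 7.84 and Galnt6 at 5.70, the second highest of 120. High Lpo in R89 and in R77 therefore came with different levels of Scd and Elovl3. Next to Lpo on chromosome 10, Supt4h1 (r = 0.022) and Mks1 (0.100) did not pass.

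Pigr was followed by 5459 probe sets (23.4%), with 2696 genes (21.9%) higher and 478 (3.88%) lower where it was higher. Nearest were Ly96, the partner of a bacterial lipopolysaccharide receptor (r = 0.688, adjusted p = 1.44e-12), the tetraspanin Tspan8 of mucosal epithelium (0.663), the macrophage lysosomal protein Cd68 (0.662), the serine protease Prss30 (0.655), Dennd2d (0.645) and the tetraspanin Tspan1 (0.634). All 6 kept r between 0.620 and 0.677 without R77 and R121. The most negative were Rgs8 (-0.421), Isl1 of retinal neurons (-0.407), the lens membrane protein Lim2 (-0.394) and Arvcf (-0.393). Pigr had r = 0.222 with the actin difference between 3′ and 5′ probes, and 1600 probe sets were left with that measure and its GAPDH counterpart as covariates, and 391 with 5 principal components removed.

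Ocular surface genes rose with Pigr in 10 of 19 cases, beside 21.9% of all genes (median r 0.25, against 0.10 over all genes). Without R77 and R121 8 of 19 rose (22.7% of all genes). With the 3′ to 5′ covariates 11 of 19 rose (8.11% of all genes), and with 5 principal components removed 6 of 19 (1.49%). They were led by the epithelial adhesion molecule Epcam (0.576), by Agr2 (0.543) and the tear mucin Muc5ac (0.532), both of goblet cells, and by Spdef (0.505). Interferon-induced genes rose in 8 of 11 cases (median r 0.26), led by Gbp2 (0.556), and in 11 of 11 without R77 (24.3% of all genes), but in 5 of 11 with the covariates and 1 of 11 with the components removed. Duox2 of the peroxidase and oxidant list is the hydrogen peroxide source of lactoperoxidase on mucosae. Its r with Pigr was 0.541, and that of Nox1 was 0.522, 2 of 4 tested. With Lpo itself Duox2 had r = 0.123 (limma adjusted p = 0.496), and 0 of the 4 passed. Of 15 lacrimal secretory genes 6 rose with Pigr, led by Wfdc2 (0.512) and the chloride uptake transporter Slc12a2 (0.478). Without R77 and R121 4 did, close to the 22.7% of all genes that did.

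Skeletal muscle genes rose with Pigr in 8 of 17 cases (median r 0.24), led by Mybpc2 (0.359), a gene of fast muscle, beside 21.9% of all genes. With the 3′ to 5′ covariates 3 of 17 rose, beside 8.11% of all genes. With the components removed 0 of 17 did in limma, beside 1.49% (Mybpc2 r = 0.150, adjusted p = 0.501). Of the plasma cell genes, whose antibodies the receptor carries, 1 of 4 tested rose, the joining chain gene Jchain (r = 0.259, adjusted p = 0.0312), whose adjusted p was 0.149 with the covariates. The part of muscle, blood or lymphoid tissue in these values was not tested. Against the same 21.9%, fatty acid synthesis gave 7 of 20 higher and Thrsp lower (-0.286), sebaceous genes 4 of 14, porphyrin synthesis 3 of 7, led by Fech (0.473), and glucocorticoid targets 0 of 7. With the components removed 0 of 20, 0 of 14, 1 of 7 and 0 of 7 rose in limma, beside 1.49% of all genes. The 1 gene called was Fech (r = 0.348, adjusted p = 0.0267). Both neighbours of Pigr on chromosome 13 rose with it: C13h1orf116 (r = 0.427, adjusted p = 2.57e-04) and Fcmr, the receptor for immunoglobulin M (0.321, 0.00792). The next ones out, Pfkfb2 (0.137) and Mapkapk2 (-0.156), did not pass.

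Aqp5 was followed by 4856 probe sets (20.8%), with 2161 genes (17.5%) higher and 508 (4.12%) lower where it was higher. Nearest were Trim29, of stratified epithelium (r = 0.706, adjusted p = 8.16e-14), the epithelial proteoglycan syndecan-1, Sdc1 (0.704), transketolase, Tkt, an abundant enzyme of corneal epithelium (0.700), Niban2 (0.698), Plxnb2 (0.686) and Efhd2 (0.669). Without R77 and R121 r was 0.668 to 0.719. The most negative were the Notch target Hey1 (-0.463), Rsu1 (-0.448), the lymphocyte adaptor Sash3 (-0.444) and Tmem135 (-0.438). Aqp5 also had r = 0.488 with the median correlation of an array to the others and -0.295 with the actin difference between 3′ and 5′ probes, and the part of array quality in these values was not tested. With 5 principal components removed 1386 probe sets were left.

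**Figure D5:**
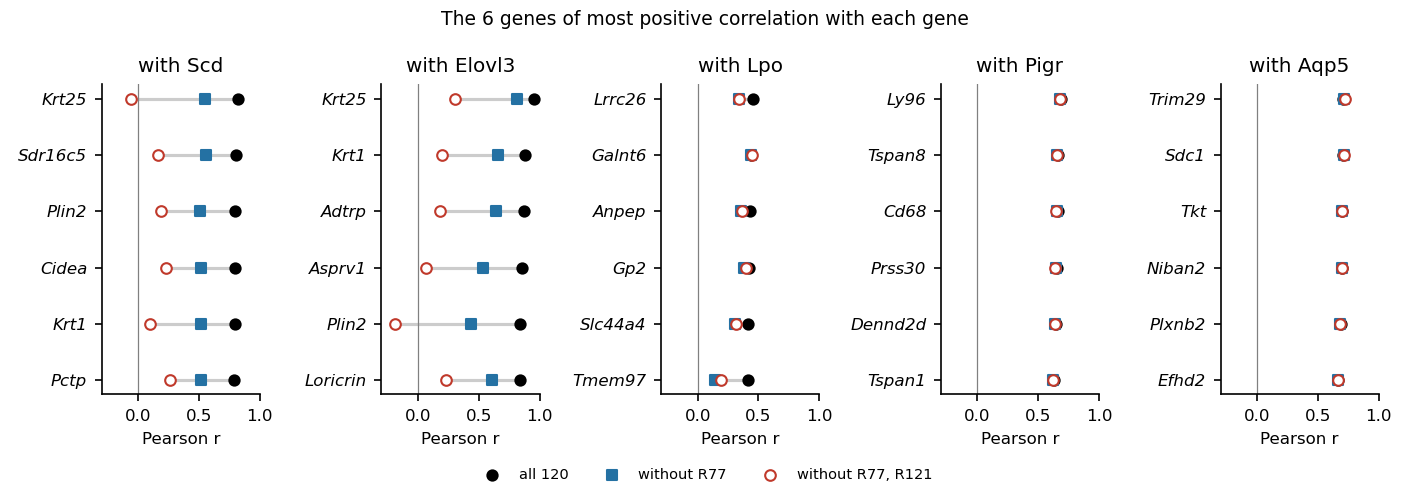
Pearson r with each of the 5 genes for the 6 genes of most positive r, over all 120 animals (black), without R77 (blue squares) and without R77 and R121 (open red circles). The values for Scd and Elovl3 drop once the 2 animals are left out, for example from 0.824 to -0.059 for Krt25 with Scd, while those of Pigr and Aqp5 stay above 0.6.

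Ocular surface genes rose with Aqp5 in 9 of 19 cases and fell in 1, beside 17.5% and 4.12% of all genes (median r 0.23, against 0.02 over all genes). The corneal crystallin Aldh3a1 (0.572), Elf3 (0.545), the basal keratin Krt5 (0.528) and the membrane mucin Muc4 (0.435) led them, and Krt12 was among them (0.326, adjusted p = 0.0115). Of 15 lacrimal secretory genes 1 rose, Rab3d (0.436), and 1 fell, Dmbt1 (-0.251), with a median r of -0.04. Of 5 tested aquaporins, Aqp3 (0.438) and Aqp1 (0.427), both also of the cornea, rose with it. Fatty acid synthesis gave 7 of 20 higher, led by Slc25a1 (0.517) and Fasn (0.473), and Agpat2 lower (-0.343). Of 14 sebaceous list genes 2 rose, Dgat1 (0.479) and Scd2 (0.463), and 1 fell, Fa2h (-0.256, adjusted p = 0.0341), near the 17.5% and 4.12% of all genes. With 5 principal components removed 3 of 19 ocular surface genes, 1 of 20 fatty acid synthesis genes and 0 of 5 aquaporins rose in limma, beside 6.11% of all genes. Next to Aqp5 on chromosome 7, Faim2 rose with it (r = 0.389, adjusted p = 4.12e-04), whereas Aqp2 (-0.094) and Racgap1 (0.101) did not pass.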

How the data were processed

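The authors deposited log2 expression values of 120 eye RNA samples, normalised by RMA (robust multi-array averaging; its version is not in the submitters' processing notes). RMA evens out arrays and can hide a shift of most genes. The annotation version is, like the genome build, not given in the sources used here. Names came from the platform's annotation, updated with RefSeq names of GRCr8: 20826 had 1 symbol, 436 listed several (not used for names) and 9780 had none. All 5 promoters were matched by symbol. The number of arrays, 1 per animal, limits the precision, and p-values cover animal and array spread at once.

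The members, gene lists and tests were chosen with earlier results of these data known. S code means were removed from each probe set (11 to 13 arrays a code). Probe sets averaging at least 4.283, the 25th percentile, were tested (23326, or 12326 genes, each by its probe set of highest mean). Moderated F tests in limma 3.58.1 (R 4.3.3) compared S codes and L codes, and every probe set was regressed on each member given the S code, at a Benjamini-Hochberg adjusted p of 0.05. Permutation tests used 100000 permutations within S codes, two-sided (Python 3.11.15). A fold is 2 to the power of the log2 difference.

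Named genes were the 5 members, the 6 genes of most positive and 4 of most negative r with each, up to 4 genes of each list past the threshold by size of r, genes neighbouring a member or lying between Scd and Elovl3, and tissue checks. Fabp4 and the other genes nearest to Scd without R77 and R121, genes high in single animals, and the genes of the lists beyond 4 were named after their values were seen. Alternatives changed the S code removal, the filter, the array level, covariates, thresholds and animals. Leaving out R77 together with R121 was chosen after seeing the data.

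On simulated data for 23326 probe sets, the L code test recovered 99.5% of 200 changed probe sets with 19 false calls. The planted code effect had an SD equal to the residual SD, the SD left after the fit. The regression on Pigr recovered 95% of 200 with 6 false calls, at a planted slope of 0.5 residual SD per SD of Pigr. Recovery of smaller effects is not covered by these values.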

Additional observations from a re-analysis of the deposited data

Results flagged for a closer look

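Within L codes of 4 to 10 arrays, 10 of 80 sets of values for the 5 genes had an animal set apart from the others of its code by Dixon's ratio, which chance gives in about 1 in 20. Values are log2 with S code means removed. R77 was the highest of L code 16 for Scd, at 12.15 with the next at 7.92, and for Elovl3, at 7.57 with the next at 3.27. R121 was the highest of L code 22 for Scd, at 10.62 with the next at 7.87, and for Elovl3, at 5.21 with the next at 3.06. Lpo was apart in R84 (5.40, next 5.20, L code 17) and in R116 (5.61, next 5.06, L code 21), and Aqp5 in R56 (10.46, next 10.27, L code 11). Elovl3 was lowest and apart in R11 (2.78, next 3.06, L code 2), R84 (2.82, next 3.03, L code 17) and R100 (2.63, next 3.10, L code 19). These 3 animals share S code 7 with R77, whose value raises the code mean that is removed, so they say nothing of a low Elovl3.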

How the results depend on the processing

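Without R77 the SD of Elovl3 was 0.23, r of Elovl3 with Lpo -0.031 and with Aqp5 -0.025, r of Scd with Lpo -0.060 and of Celsr3 with Scd 0.040, the S code test of Scd had p = 0.0428 (limma, adjusted), and 39, 17 and 2 probe sets followed Scd, Elovl3 and Lpo. Without R77 and R121 the SDs of Scd and Elovl3 were 0.28 and 0.11, r of Elovl3 with Scd -0.149, with Lpo 0.062, with Pigr -0.185 and with Aqp5 -0.031, r of Scd with Lpo -0.019, the S code test of Scd had p = 0.0278 (limma, adjusted), and 7602 and 3 probe sets followed Elovl3 and Lpo. Then r with Scd was -0.059 for Krt25, 0.163 for Celsr3 and 0.012 for Zwint, and r of Plin2 with Elovl3 was -0.189. Spearman rho was 0.193 for Elovl3 with Scd, 0.074 with Lpo, -0.061 with Pigr and -0.030 with Aqp5, and 0.067 for Celsr3 with Scd. With S code means kept, the SD of Aqp5 was 0.24, r of Pigr with Aqp5 -0.220, and 11163 and 12275 probe sets followed Pigr and Aqp5. Removing L code effects gave Pigr with Aqp5 r = 0.023. With the 3′ to 5′ differences as covariates it was 0.040, the S code test of Pigr had p = 0.230 (limma, adjusted), and 709 and 1600 probe sets followed Scd and Pigr. With 5 principal components removed r of Elovl3 was 0.244 with Lpo and -0.032 with Aqp5, and 9, 391 and 1386 probe sets followed Lpo, Pigr and Aqp5. At an adjusted p of 0.01, 221, 516, 9, 1894 and 2808 followed Scd, Elovl3, Lpo, Pigr and Aqp5. Lpo was followed by 621 probe sets without the 3 rescanned arrays and by 704 without R63 and R15. The cause of these differences was not tested.

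Leaving out each S code in turn gave an SD of Elovl3 of 0.24 to 0.53, r of -0.038 to 0.435 for Elovl3 with Lpo, -0.038 to 0.052 for Elovl3 with Aqp5, -0.060 to 0.357 for Scd with Lpo, -0.064 to 0.046 for Pigr with Aqp5 and -0.507 to 0.052 for Celsr3 with Scd. The S code test had p of 0.0393 to 0.358 for Scd and 0.00404 to 0.0528 for Pigr (limma, adjusted). Between 28 and 533 probe sets followed Scd, 16 and 1537 Elovl3, 2 and 931 Lpo, and 3175 and 5950 Pigr. Of 210 values for pairs of the 5 genes, 186 kept their direction and side of the threshold, as did 1021 of 1113 for named genes. Each gene had 1 probe set, so no other could be tried. No paired analysis was possible because all animals are in 1 group. Signals near the floor of the array, as for Elovl3 outside R77 and R121, allow no order between animals.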
